A study of Mus musculus with 16 samples.

Results

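Genes that mark macrophages were followed in arrays of cultured mouse mammary fibroblasts. The 45 genes were chosen for the way they behaved in these same arrays: high values in cells called fibroblasts, values that moved together from culture to culture, lower values in the knockout, and little response to medium conditioned by tumour cells. The genotype differences, the covariation and the responses given for them are therefore descriptions, and no test of them is offered. Of the 45 symbols, 43 were among the 18132 gene symbols measured. Those 43 stand for 42 genes, because LYZS is an older symbol of Lyz2. MPEG1 and SPI1 were not analysed here.

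The study asked which secreted factors of mammary fibroblasts depend on the kinase MEKK1, encoded by Map3k1, and how the cells respond to factors from breast tumour cells. RNA from 16 cultures was hybridised to Illumina Mouse 8 arrays, 4 cultures in each of 4 groups. The groups were untreated MEKK1+/+ cells, MEKK1+/+ cells given CM, growth medium conditioned by cultures of the human breast cancer line MDA-MB-231, for 8 h, untreated MEKK1-/- cells, and MEKK1-/- cells given CM for 8 h. All groups came from the inguinal mammary glands of female 129S6 mice of 8 to 10 weeks, and all were grown in DMEM with serum. The methods give 3 mice per genotype for 4 culture replicates per condition, so the cultures of a group cannot all come from different mice, and errors measure the spread between cultures. The glands were digested, the floating fat and the epithelial pellet were taken away, and the remaining cells were plated. The sources used here describe no sorting of cells and no step against leukocytes.

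Macrophages depend on the growth factor CSF1, whose receptor is CSF1R, and on the transcription factor PU.1, which binds purine-rich DNA around the letters GGAA. In the mammary gland they lie along the ducts and in the fat pad, where they clear debris and take part in duct growth. Their marker genes encode pattern receptors, Fc receptors with signalling adaptors, complement component C1q, lysosomal enzymes, subunits of the phagocyte NADPH oxidase and actin regulators of blood cells.

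Values below are quantile-normalized log2 intensities, so a difference of 1 is a doubling, and levels are compared between arrays for a gene but not between genes. As a floor for each array (the olfactory floor), the 99th percentile of 1075 olfactory receptor genes was used, a family that fibroblasts are not known to use. It lay between 7.20 and 7.34 on the 16 arrays. Among all 18132 genes, 6923 were above it on every array and 8251 on none. Arrays of the same group correlated between 0.979 and 0.996 over all genes. Of the 13 fibroblast genes measured from the marker lists, 11 were above the olfactory floor on every array. LUM and POSTN were nearer the floor, above it on 12 and 11 arrays. The list mean was 11.11 to 11.56 on every array. MAP3K1 itself was not lower in the cultures labelled MEKK1-/-. Its means were 7.71 and 8.24 in untreated MEKK1+/+ and MEKK1-/- cells and 7.74 and 8.07 with CM, with limma adjusted p = 0.466 and 0.605. Whether its probe lies in the deleted part is not given in the sources used here, so this does not check the labels.

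The promoters of several members carry the letters of a PU.1 site close to the start of the gene. RefSeq promoters of GRCm38.p6, from 250 bases before to 50 after the start, were found for 31 of the named genes (40 promoters, since some genes have several starts). GAGGAA, the PU.1 core searched here, stood on either strand in 22 of the 40 (55.0%), against 28.3% of all 32851 mouse promoters. Other motifs searched on both strands were TTGCNNAA, the C/EBP letters, in 12.5% of the member promoters and 10.8% of all, and TGANTCA, the AP-1 letters, in 17.5% and 7.81%. No overlap between the motifs was removed, the promoters of a gene share sequence, and a match is not a binding site. Of the 9 members measured on every array whose 100 bases before the start were examined, 4 hold the GAGGAA letters there and 5 do not. The share of all promoters with these letters in this shorter window was not counted, so nothing is read from that number. The lines that follow give all 4 and, for contrast, 2 of the 5, with the letters in capitals (TTCCTC is the same motif on the other strand). The CD53 window is chr3:106790150-106790249 on the minus strand, LAPTM5 chr4:130913216-130913315 on the plus strand, C1QB chr4:136886201-136886300 on the minus strand, FCGR3 chr1:171059404-171059503 on the minus strand, LYZ2 chr10:117282273-117282372 on the minus strand and CTSS chr3:95526686-95526785 on the plus strand.
CD53: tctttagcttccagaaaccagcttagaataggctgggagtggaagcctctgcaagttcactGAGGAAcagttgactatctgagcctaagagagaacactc
LAPTM5: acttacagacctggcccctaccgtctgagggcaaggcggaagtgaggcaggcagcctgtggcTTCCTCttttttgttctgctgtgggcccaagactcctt
C1QB: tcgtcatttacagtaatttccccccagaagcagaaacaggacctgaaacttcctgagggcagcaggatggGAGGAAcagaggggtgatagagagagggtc
FCGR3: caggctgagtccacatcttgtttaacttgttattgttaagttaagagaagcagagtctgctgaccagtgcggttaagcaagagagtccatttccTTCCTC
LYZ2: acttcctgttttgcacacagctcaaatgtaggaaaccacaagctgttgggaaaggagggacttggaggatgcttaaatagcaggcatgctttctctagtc
CTSS: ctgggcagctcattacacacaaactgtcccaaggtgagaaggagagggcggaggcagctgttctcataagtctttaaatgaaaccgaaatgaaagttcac
The first capital letter lay 39 bases before the start in CD53, 38 in LAPTM5, 30 in C1QB and 6 in FCGR3. The windows of LYZ2 and CTSS lack GAGGAA on either strand. The shorter letters GGAA do stand in the LYZ2 window, so it is not without the letters around which PU.1 binds. C1qa, C1qb and C1qc are adjacent genes on chromosome 4, Aif1 and Lst1 are adjacent on chromosome 17, and Fcgr2b and Fcgr3 on chromosome 1 have 1 gene between them. Members that are neighbours are not independent in position.

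Many of the macrophage genes were measurable in these cultures. CSF1R, CD52, CD14, CD53, LYZ2, LYZS, TYROBP, FCGR3, CLEC4N, C1QB, C1QC, MS4A6D, LAPTM5, CTSS, CORO1A, ARHGDIB and LST1, 17 of the 43, were above the olfactory floor on all 16 arrays, a share near the 38.2% of all genes that were. Another 17 were above it on some arrays, from STAP1 on 1 array and FCGR1 and CLEC7A on 4 to EMR1 and C1QA on 15. The remaining 9 were above it on none: PTPRC, CD163, ITGAM, C3AR1, C5AR1, FCER1G, CCR1, CYBB and NCF1. The members above it numbered 27 to 33 of the 43 on each MEKK1+/+ array and 18 to 28 on each MEKK1-/- array, and at most 47.0% of all genes were above it on any array, so that the lowest of these counts are no larger a share than that of all genes.

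**Figure D1:**
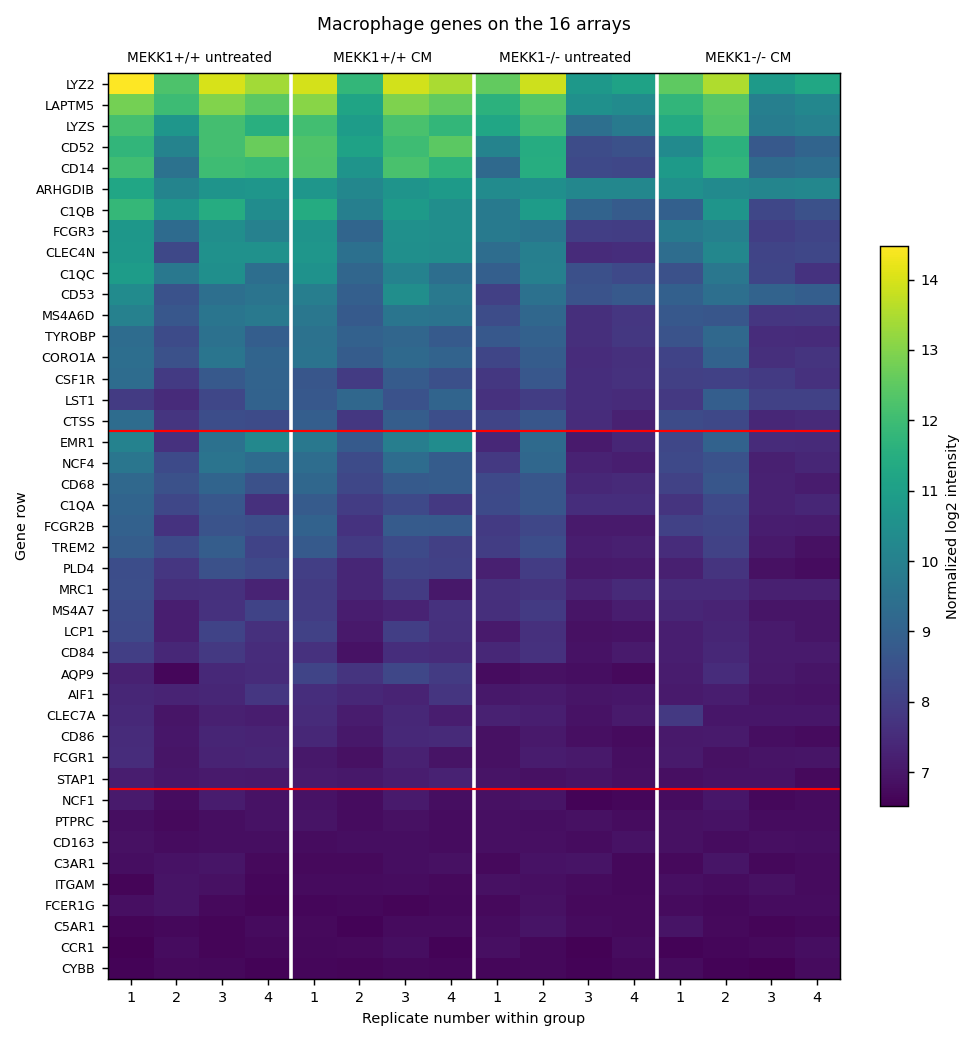
Quantile-normalized log2 intensity of the 43 member symbols (rows) on the 16 arrays (columns, grouped by genotype and medium, replicates 1 to 4). Colours compare arrays within a row and not genes with each other. Dark is low and bright is high. Red lines part the 17 symbols above the olfactory floor on all arrays (top) from the 17 above it on some and the 9 on none, and in most of the top rows replicate 2 is the darkest of the MEKK1+/+ arrays and the brightest of the MEKK1-/- arrays.

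CSF1R, the receptor on which the lineage depends, was measurable everywhere. CSF1R was 9.34, 7.86, 8.74 and 9.04 in untreated MEKK1+/+ cultures 1 to 4, and 8.66, 7.91, 8.80 and 8.47 with CM. CSF1R in MEKK1-/- cultures was 7.82, 8.68, 7.56 and 7.66 untreated and 8.04, 8.07, 7.86 and 7.66 with CM. MEKK1+/+ culture 2 was the lowest of its genotype under both conditions, and MEKK1-/- culture 2 was the highest of its own, so the genotypes overlapped. The difference of means, MEKK1-/- minus MEKK1+/+ on the log2 scale, was -0.82 without CM (SE 0.29, 1.76-fold lower) and -0.55 (SE 0.29) with it. In such bulk cultures, fewer cells that express a gene and less of its RNA per cell cannot be told apart. Which cells in the cultures held this RNA was not tested.

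The widest spread over the 16 arrays was that of a surface protein. CD52, a small glycoprotein of leukocytes, was 11.77, 10.07, 12.11 and 12.66 in untreated MEKK1+/+ cultures and 12.28, 11.12, 12.01 and 12.47 with CM. CD52 in MEKK1-/- cultures was 10.08, 11.44, 8.36 and 8.48 untreated and 10.33, 11.65, 8.73 and 9.09 with CM. Its 16 values covered a 19.8-fold range. The mean differed by -2.06 (SE 0.74, 4.18-fold) between genotypes without CM and -2.02 with it, yet MEKK1-/- culture 2 stood above MEKK1+/+ culture 2 both times. CD14, the co-receptor for bacterial lipopolysaccharide, was 12.05, 9.53, 12.02 and 11.88 in untreated MEKK1+/+ cultures and 12.27, 10.65, 12.19 and 11.70 with CM. CD14 in MEKK1-/- cultures was 9.25, 11.49, 8.29 and 8.23 untreated and 10.86, 11.75, 9.27 and 9.41 with CM. The same cultures numbered 2 left the pattern of their genotype, and the mean difference was -2.05 (SE 0.76, 4.15-fold) untreated and -1.38 (2.60-fold) with CM.

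EMR1, the symbol used here for the gene of the F4/80 antigen, was 10.05, 7.65, 9.49 and 10.23 in untreated MEKK1+/+ cultures and 9.72, 8.77, 9.94 and 10.38 with CM. EMR1 in MEKK1-/- cultures was 7.40, 9.27, 7.10 and 7.38 untreated and 8.23, 9.02, 7.51 and 7.48 with CM. Only the untreated MEKK1-/- culture 3 was below the olfactory floor. CD68, a lysosomal membrane protein of macrophages, was 9.22, 8.50, 9.10 and 8.50 in untreated MEKK1+/+ cultures against 8.27, 8.66, 7.42 and 7.48 in untreated MEKK1-/- cultures. LAPTM5, a lysosomal membrane protein of blood cells, was 12.82, 11.97, 12.96 and 12.48 against 11.63, 12.38, 10.50 and 10.35 in the same comparison, and its mean differed by -1.34 (SE 0.58). For both genes the low MEKK1-/- values were those of cultures 3 and 4. MS4A6D, a membrane protein of the MS4A family, was 9.67, 8.76, 9.60 and 9.56 with CM in MEKK1+/+ cultures and 8.72, 8.66, 7.78 and 7.80 in MEKK1-/- cultures, groups that did not overlap, though the nearest values were 8.76 and 8.72. MS4A6D untreated was 10.03, 8.69, 9.61 and 9.74 against 8.37, 9.17, 7.59 and 7.79, groups that did overlap.

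CD53, a tetraspanin of leukocytes, ran from 8.03 to 10.46 over the 16 arrays. Nearer the floor, CD84, CD86, MRC1 (the mannose receptor) and MS4A7 were above the olfactory floor on 10, 6, 12 and 9 arrays. A few defining leukocyte surface genes could not be told from the floor. PTPRC, which encodes the common leukocyte antigen CD45, stayed between 6.72 and 6.94, CD163 between 6.77 and 6.91, and ITGAM, the integrin chain CD11b, between 6.62 and 6.94. A difference in them could not be read at this level, although PTPRC moved with the other members at r = 0.63. Values at the floor do not say whether the protein was present.

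C1q, the recognition part of the classical complement pathway, is built from the chains of C1QA, C1QB and C1QC. C1QB was 11.83, 10.66, 11.45 and 10.40 in untreated MEKK1+/+ cultures and 11.42, 9.96, 10.85 and 10.46 with CM. C1QB in MEKK1-/- cultures was 9.76, 10.91, 9.05 and 8.80 untreated and 8.96, 10.68, 8.21 and 8.48 with CM. MEKK1-/- culture 2 lay inside the MEKK1+/+ range in each condition while the other 3 lay under it. C1QC followed the same layout with mean differences of -1.20 (SE 0.47) untreated and -1.28 with CM, and C1QB had -1.45 (SE 0.54) and -1.59. C1QA was nearer the floor, with 7.55 in the untreated MEKK1-/- cultures 3 and 4, and its differences were -0.39 (SE 0.33) and -0.56. The receptors for the complement fragments C3a and C5a, C3AR1 and C5AR1, were at the floor on every array.

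Among the Fc receptors and their partners, FCGR3 was 10.72, 9.31, 10.46 and 10.01 in untreated MEKK1+/+ cultures and 9.78, 9.60, 8.01 and 7.96 in untreated MEKK1-/- cultures. Here MEKK1-/- cultures 1 and 2 were near each other and cultures 3 and 4 far below them. TYROBP, the adaptor DAP12 through which TREM2 and other receptors signal, was 9.33, 8.34, 9.50 and 8.90 against 8.71, 8.99, 7.58 and 7.81. CLEC4N, the C-type lectin dectin-2, was 10.76, 8.25, 10.55 and 10.55 against 9.36, 9.96, 7.49 and 7.56, with MEKK1+/+ culture 2 below 2 of the MEKK1-/- cultures. The inhibitory receptor FCGR2B and the lipid receptor TREM2 were each above the olfactory floor on 12 arrays, with untreated differences of -0.85 (SE 0.36) and -0.87 (SE 0.31). FCGR1 and CLEC7A (dectin-1) passed the level on 4 arrays each. FCER1G, the signalling chain shared by Fc receptors, was at the floor everywhere, between 6.63 and 6.95, although genes of its partner receptors were not.

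Lysosomal and digestive genes followed. LYZ2, the lysozyme of macrophages, was 14.48, 12.26, 14.01 and 13.37 in untreated MEKK1+/+ cultures and 13.97, 11.79, 13.93 and 13.46 with CM. LYZ2 in MEKK1-/- cultures was 12.58, 13.87, 10.76 and 11.11 untreated and 12.50, 13.52, 10.85 and 11.25 with CM. Every culture with MEKK1-/- other than number 2 was below MEKK1+/+ cultures 1, 3 and 4, and the mean differences were -1.45 (SE 0.74, 2.73-fold) and -1.26 (2.39-fold). LYZS, the older symbol of the same gene, gave -0.98 (SE 0.61) and -0.84, and correlated with LYZ2 at r = 0.98 between cultures after group means were removed. CTSS, the protease cathepsin S, gave -0.56 (SE 0.36) and -0.64, and PLD4, an exonuclease of the lysosome, gave -0.91 (SE 0.24) and -0.74.

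Of the NADPH oxidase genes only NCF4, which encodes the p40phox subunit, was clearly measured. NCF4 was 9.64, 8.32, 9.59 and 9.30 in untreated MEKK1+/+ cultures and 7.83, 9.19, 7.29 and 7.19 in untreated MEKK1-/- cultures. MEKK1-/- culture 2 exceeded MEKK1+/+ culture 2 and no other MEKK1+/+ culture. CYBB, the catalytic subunit, stayed between 6.55 and 6.75, and NCF1, the p47phox subunit, between 6.61 and 7.12, both under the olfactory floor on all arrays. NCF1 nevertheless moved with the other members at r = 0.87, which CYBB, at r = -0.02, did not.

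Of the cytoskeletal and signalling genes, AIF1 and STAP1 separated the genotypes in both conditions and CORO1A did not. CORO1A, coronin of blood cells, was 9.40, 8.49, 9.60 and 9.09 in untreated MEKK1+/+ cultures and 8.17, 8.84, 7.54 and 7.61 in untreated MEKK1-/- cultures. These overlapped through the cultures numbered 2 alone. AIF1, the calcium-binding protein IBA1, was 7.36, 7.31, 7.36 and 7.79 against 7.04, 7.11, 6.96 and 7.01 untreated, and 7.57, 7.42, 7.31 and 7.74 against 7.10, 7.15, 6.93 and 6.92 with CM. Its MEKK1-/- values were all at the floor and all below every MEKK1+/+ value. STAP1, a signalling adaptor, separated likewise in both conditions but between 6.72 and 7.28, within the range of the floor. ARHGDIB differed by -0.35 (SE 0.19) untreated, and LCP1, L-plastin, was above the olfactory floor on 7 arrays.

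The members moved together from culture to culture. To leave the groups out, each value was taken as its deviation from the mean of its group, over the 16 arrays, which share 4 group means, the normalization and, for some, the mouse. Over the 136 pairs of the 17 members above the floor on every array, the median correlation was 0.84, from 0.10 for CTSS with LST1 to 0.98 for LYZ2 with LYZS. With the 2 arrays of MEKK1-/- culture 2 left out, the median was 0.80 and the lowest pair was at -0.33. The group means still held those 2 arrays, so leaving them out in this way did not remove all of their influence. Against the mean of the other members, LYZ2 had r = 0.98 (Spearman correlation 0.96, and r = 0.97 without the same 2 arrays), CD14 and LYZS 0.97, and CORO1A, CLEC4N and MS4A6D 0.96. LST1 was the exception at 0.36, followed by CD53 at 0.66 and ARHGDIB at 0.71. In the 17 members measured on some arrays the median was 0.84, led by NCF4 at 0.97 and FCGR2B at 0.96, and in the 9 at the floor it was 0.09. Without the same 2 arrays, and with the same limit, the medians of the 3 classes were 0.91, 0.82 and 0.06.

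**Figure D2:**
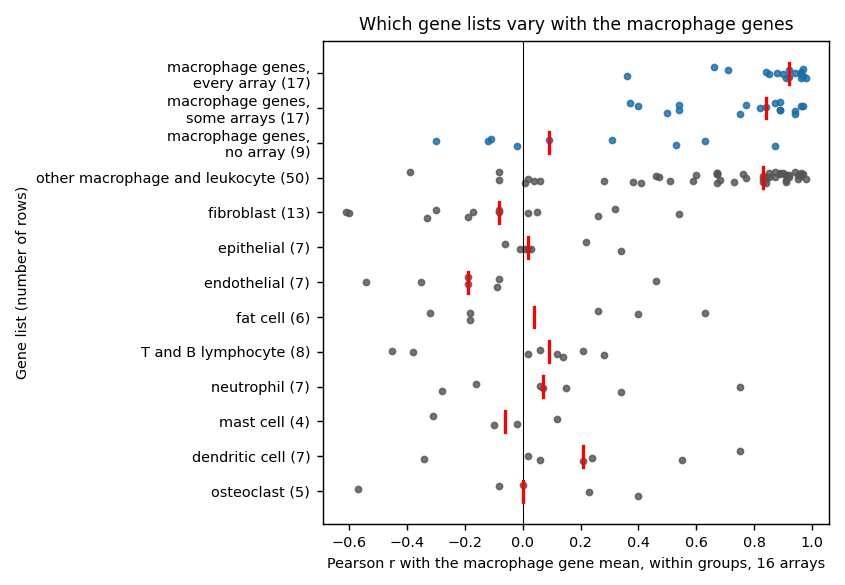
Pearson correlation of deviations from group means over 16 arrays, a point for each gene (x axis) in each gene list (y axis, number of genes in brackets), with the mean of the members measured on every array, a member's own value left out. The short line marks the list median. Of the members, 14 of the 17 above the floor on every array, 10 of the 17 above it on some and 1 of the 9 at it lie over 0.8. No gene of the lists from fibroblast to osteoclast does, but many of those genes are at the floor.

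The range between cultures of the same group was about as wide as the difference between genotypes. Averaged over the 17 members, untreated MEKK1+/+ cultures 1 to 4 were at 10.85, 9.39, 10.60 and 10.39, and those with CM at 10.74, 9.65, 10.62 and 10.39. The MEKK1-/- cultures were at 9.40, 10.23, 8.50 and 8.54 untreated and at 9.56, 10.24, 8.63 and 8.70 with CM. Group means were 10.31 ± 0.64, 10.35 ± 0.49, 9.17 ± 0.82 and 9.28 ± 0.77 (SD of 4 cultures) in that order, and within a group the highest culture exceeded the lowest 2.14-fold to 3.33-fold. In each genotype the 4 numbers kept the same order with and without CM, and the 2 arrays of a number differed by -0.10 to 0.25. Gene by gene the order was identical in both conditions for 4 of the 17 members in MEKK1+/+ cells and 6 in MEKK1-/- cells. No share over all genes stands beside these counts, so nothing is read from them.

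Culture 2 was the extreme of both genotypes for most members, in opposite directions. In MEKK1+/+ cells it was the lowest of 4 for 15 of the 17 members, untreated and again with CM, where it was for 23.8% and 26.8% of all genes. In MEKK1-/- cells it was the highest for 16 members untreated and 14 with CM, where it was for 24.5% and 29.2% of all genes. MEKK1+/+ culture 2 was at or below the highest MEKK1-/- culture for all 17 members untreated and 15 with CM, and for 80.8% and 78.2% of all genes. The other MEKK1+/+ cultures were above all 4 MEKK1-/- cultures for 9 and 10 of the 17, against 4.9% and 4.66% of all genes. They were above MEKK1-/- cultures 1, 3 and 4 for 17 of 17 in each condition, against 9.04% and 8.43% of all genes. Since the cultures numbered 2 were singled out on these values, this is a description of where the overlap lies.

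**Figure D3:**
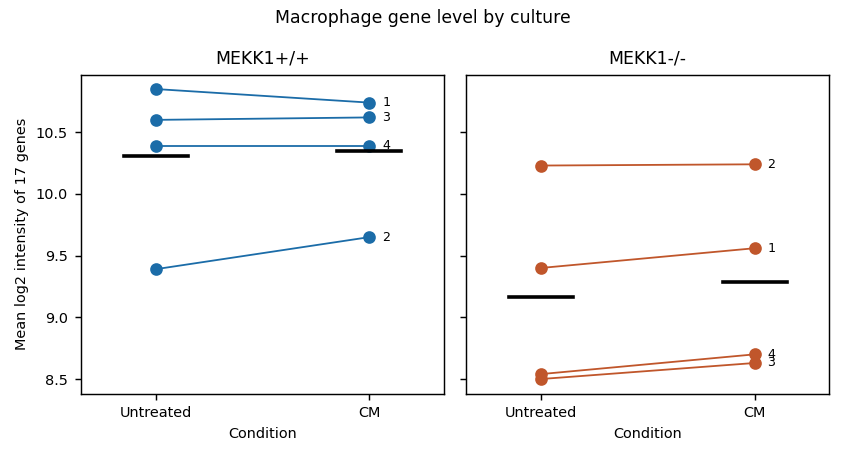
Mean log2 intensity of the 17 members above the olfactory floor on all arrays, a point for each array, with lines joining the arrays of the same replicate number in untreated and CM cultures of each genotype and short bars at the group means. Lines are nearly flat, MEKK1+/+ replicate 2 sits at 9.39 and 9.65, and MEKK1-/- replicate 2 at 10.23 and 10.24.

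Between genotypes, 37 of the 43 members had a lower mean in MEKK1-/- cultures without CM and 37 with it (29 on the scale as deposited, on which the median of all genes stood at 0.28). The median difference was -0.56 untreated and -0.64 with CM, where all 18132 genes had medians of 0.01 and 0.00 and 47.2% and 48.3% of them were lower. The range ran from -2.06 for CD52 to 0.11 for C5AR1 untreated, and from -2.02 for CD52 to 0.08 for FCER1G with CM. All 17 members above the floor on every array and all 17 above it on some were lower in both conditions, with medians of -1.20 and -1.16 for the former and -0.42 and -0.55 for the latter. The 9 members at the floor had medians of 0.02 and 0.01. These classes rest on the same values, and 4 members of the middle class, CD86, FCGR1, AIF1 and STAP1, passed the floor on MEKK1+/+ arrays only, so the split itself in part set their direction. In limma, 0 of the 43 passed an adjusted p of 0.05 in either condition, where 0.0% and 0.00552% of all genes did, and 23 and 20 members were lower at an unadjusted p under 0.05, where 4.34% and 3.65% of all genes were. A z-test on z-scores, the kind of test the study used, run on the same arrays, called 21 and 23, where 1.22% and 1.13% of all genes were called. Since the members were picked for this contrast, nothing is read from these counts.

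**Figure D4:**
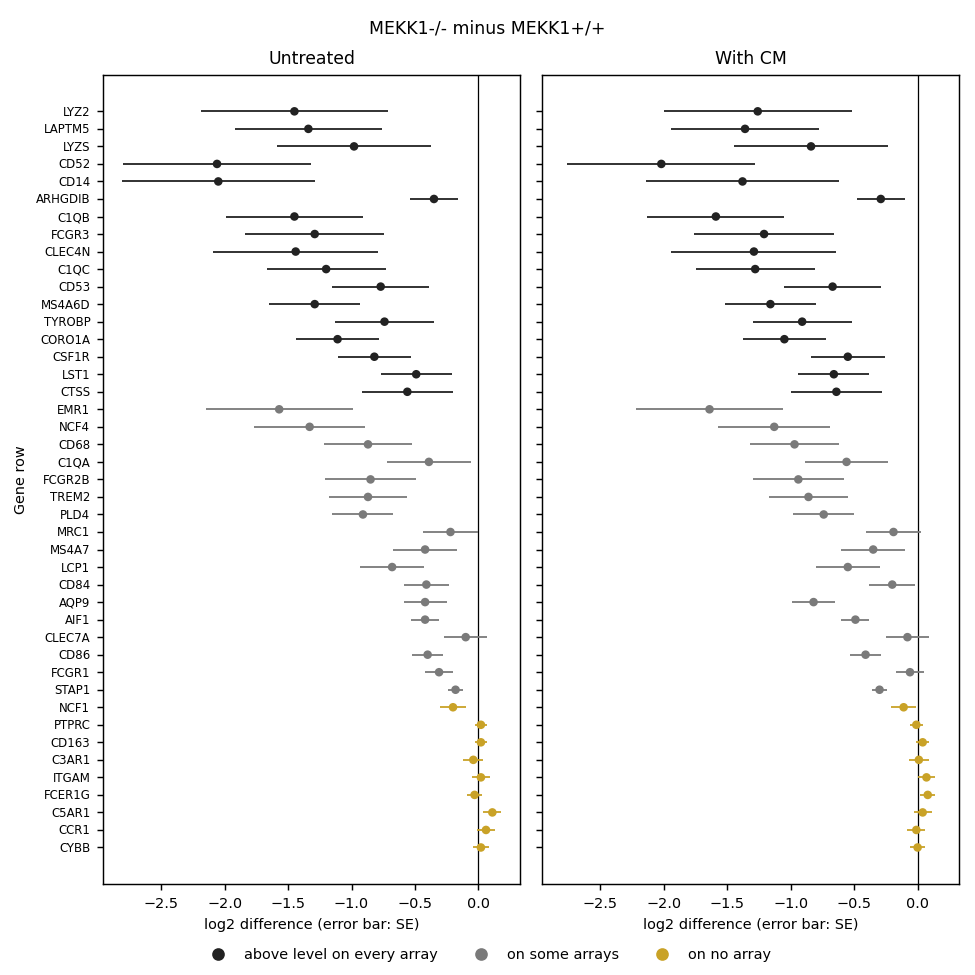
Difference of group means, MEKK1-/- minus MEKK1+/+, in log2 units for each member, without CM (left) and with it (right), error bars giving the standard error from limma with 4 arrays per group. CD52 lies at -2.06 and -2.02 and CD14 at -2.05 and -1.38, members at the floor lie around 0, and on the deposited scale 8 fewer members are below 0 with CM.

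Few members separated the genotypes culture by culture. AIF1 and STAP1 were lower in every untreated MEKK1-/- culture than in any MEKK1+/+ culture, against 2.01% of all genes, and 0 members were separate in the higher direction, against 2.59%. With CM these were AIF1, STAP1, MS4A6D and AQP9, against 1.85% of all genes, and FCER1G, at the floor, was separate in the higher direction, against 2.33%. Without the 4 arrays numbered 2, an alternative added after the values were seen and chosen on these genes' own values, the untreated median was -1.05 and 20 members passed the adjusted threshold among 383 genes (2.11% of all), and 14 passed among 120 genes (0.662%) with CM.

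Epithelial genes differed between the cultures too. KRT8, a keratin of luminal cells, was 11.82, 7.46, 8.62 and 8.52 in untreated MEKK1-/- cultures 1 to 4, and between 7.35 and 7.71 in untreated MEKK1+/+ cultures. KRT14, a keratin of basal cells, was 11.90, 6.84, 7.95 and 7.78 in the same MEKK1-/- cultures and reached 11.48 in culture 1 with CM. The mean of the 7 epithelial genes measured was 6.95 to 7.10 on all MEKK1+/+ arrays and reached 9.59 untreated and 9.58 with CM in MEKK1-/- arrays. Of these 7 genes 5 passed the olfactory floor on some arrays, and KRT5 and ELF3 passed it on none. Culture 2 of MEKK1-/-, highest for the macrophage genes, had both keratins within the MEKK1+/+ range when untreated. Endothelial genes moved less, with a mean of 7 genes of 6.97 to 7.17 on MEKK1+/+ arrays and 7.11 to 7.63 on MEKK1-/- arrays. The part of either list in the genotype differences of the macrophage genes was not tested. With group means removed, correlations with the members ran from -0.06 to 0.34 for epithelial genes and from -0.54 to 0.46 for endothelial genes. Such correlations do not bear on a difference between genotypes.

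With CM the members stayed near their untreated values, a pattern for which they were chosen. Their median response was -0.03 with MEKK1 and -0.01 without it, with 21 and 18 of the 43 higher. For the 17 members above the floor on every array the medians were 0.05 and 0.01. In limma 1 member, AQP9, passed the adjusted threshold in MEKK1+/+ cells, where 5.01% of all genes did, and 0 members passed in MEKK1-/- cells, where 4.69% did. Without adjustment 3 and 1 members had p under 0.05, where 16.8% and 16.2% of all genes did, and the z-test called 1 in each genotype, AQP9 and CD14, where 1.29% and 1.28% of all genes were called. Nothing is read from these counts either.

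AQP9, a channel for water and glycerol, was the only member to pass the adjusted threshold with CM in the fit without replicate block. AQP9 was 7.25, 6.66, 7.43 and 7.49 in untreated MEKK1+/+ cultures and 8.16, 7.71, 8.20 and 7.90 with CM. AQP9 in MEKK1-/- cultures was 6.78, 6.89, 6.80 and 6.71 untreated and 7.12, 7.54, 7.07 and 6.97 with CM. Treated and untreated cultures did not overlap in either genotype, which held for 4.68% of all genes in MEKK1+/+ cells and 4.9% in MEKK1-/- cells in the higher direction. No member was separate in the lower direction, against 5.02% and 5.53%. AQP9 had a response of 0.78 (SE 0.17, 1.72-fold) in MEKK1+/+ cultures and of 0.38 in those lacking MEKK1, where untreated values were at the floor. It missed the adjusted threshold on the deposited scale and in a fit of the 2 MEKK1+/+ groups alone. LST1, a leukocyte membrane protein, had the next highest response in MEKK1+/+ cells, 0.72 (SE 0.28), with 7.90, 7.49, 8.23 and 9.01 untreated and 8.72, 9.18, 8.53 and 9.07 with CM, groups that overlapped through culture 4. In MEKK1-/- cells LST1 responded by 0.55 (SE 0.28), more than AQP9. It was higher with CM in 4 of 4 same-numbered pairs of each genotype.

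The labels do not say whether same-numbered arrays belong together. In MEKK1-/- cells the deviations of such arrays correlated over all genes at 0.505, 0.403, 0.219 and 0.251. Same-numbered arrays of different genotypes, which cannot share a mouse, reached 0.234 (number 3 with CM). Correlations of that size therefore do not show pairing. Over both genotypes limma put the correlation of arrays sharing genotype and number at 0.105. With the replicate number as a block within genotype, 4 of the 43 members passed the adjusted threshold in MEKK1-/- cells. That share was near the 7.93% of all genes that did, and these calls rest on a pairing that the labels do not give. CD14 was higher with CM in 4 of 4 pairs (1.01), and so was LYZS (0.27). C1QB was lower in 4 of 4 pairs (-0.55), and so was C1QC (-0.41). LYZ2, measured for the same gene as LYZS, had -0.05. In MEKK1+/+ cells pairing was less clear, because number 1 correlated at -0.038 over all genes. The same block called 3 of the 43 members there, AQP9, C1QC and PLD4, a share near the 8.17% of all genes. C1QC (-0.34) and PLD4 (-0.35) were lower with CM in 4 of 4 MEKK1+/+ pairs. The difference of the responses between genotypes had a median of 0.03 over the 43 members, from -0.40 for AQP9 to 0.67 for CD14, and 0 members passed in limma, where 0.0% of all genes did, with 0 at an unadjusted p under 0.05 (2.61% of all genes) and 1, CD14, by the z-test (0.403%).

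**Figure D5:**
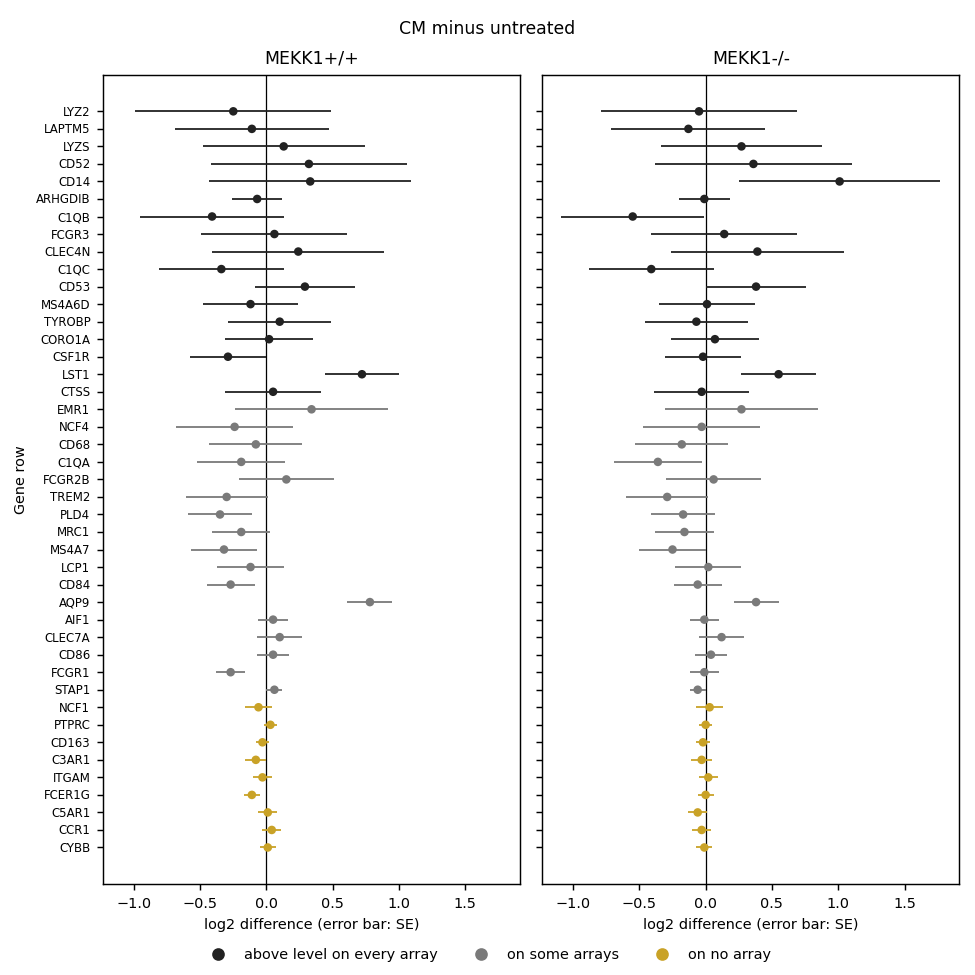
Difference of group means, CM minus untreated, in log2 units for each member in MEKK1+/+ (left) and MEKK1-/- (right) cultures, error bars giving the standard error from the limma fit without replicate block. Most members lie within 0.5 of 0, AQP9 lies at 0.78 and 0.38, LST1 at 0.72 and 0.55, and CD14 at 0.33 and 1.01.

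Genes outside the 43 were ranked by their likeness to the members. Ranked by correlation of deviations with the mean of the 17 members, over 16 arrays and 6906 candidate genes above the olfactory floor on all arrays, the closest were CFP (properdin of the alternative complement pathway, r = 0.98), CCL6 (a chemokine, 0.98), LOC100048556 (0.97), LYZ (0.97), ARG1 (arginase, 0.97), CXCL4 (a platelet chemokine, 0.97), NCKAP1L (an actin regulator of blood cells, 0.96), ALOX5AP (needed for leukotriene synthesis, 0.96), ARHGAP30 (0.93) and LGALS3 (galectin, 0.92). LYZ is a lysozyme symbol too, and the mean it was ranked against already holds LYZ2 and LYZS. Of the candidates, 30 had r over 0.8 and 8 had r under -0.8. CFP differed between genotypes by -1.52 untreated and ARG1 by -1.42, while LGALS3 differed by -0.17. Their responses to CM in MEKK1+/+ cells were -0.17, 0.03 and -0.28.

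A wider list of other macrophage and leukocyte genes had 50 of its 51 symbols measured. Of these, 14 exceeded the floor on all arrays and 26 on some, and 26 of the 50 correlated with the members over 0.8. In the MEKK1-/- cultures 44 were lower untreated and 45 with CM, each with a median of -0.43, and 28 and 22 were lower at an unadjusted p under 0.05, against 4.34% and 3.65% of all genes. At the adjusted threshold in limma 0 passed in any contrast, against 0.0% and 0.00552% of all genes for genotype, 5.01% and 4.69% for CM and 0.0% for the interaction. The list was chosen with earlier results of these data known. It holds CCL3, CCL4 and CCL6, which the study reported as reduced in MEKK1-/- cells. Nothing is therefore read from these counts. The chemokine CCL3 was 11.29, 7.43, 11.66 and 12.40 in untreated MEKK1+/+ cultures and 8.16, 10.73, 6.87 and 6.87 in untreated MEKK1-/- cultures, low and high in the same cultures as the members. CCL3 with CM was 11.69, 11.41, 11.93 and 12.77 in MEKK1+/+ cultures and 11.12, 10.94, 8.48 and 8.71 in MEKK1-/- cultures, and MEKK1+/+ culture 2 was still the lowest of its genotype, next to culture 1.

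Genes of other cell types were compared with the members in the same way. In the lists of fibroblast, epithelial, endothelial, fat cell, T and B lymphocyte, neutrophil, mast cell, dendritic cell and osteoclast genes, 0 genes correlated with the members over 0.8. The nearest were CD74 of the dendritic cell list (0.75), S100A8 of the neutrophil list (0.75) and CFD of the fat cell list (0.63), values like those of the members ARHGDIB and CD53. In the opposite direction the furthest were FAP (-0.61) and PDGFRB (-0.60) of the fibroblast list, both above the floor on every array. S100A8 was 11.77 in untreated MEKK1+/+ culture 4 and 9.92 or less in the others, and 10.20 in untreated MEKK1-/- culture 2 and 9.37 or less in the others. It was low in the cultures where the members were low, but highest in MEKK1+/+ culture 4, which the members were not. Of the 8 lymphocyte genes measured, 7 were at the floor on every array. So were 5 of the 6 fat cell, 3 of the 4 mast cell, 4 of the 7 neutrophil and 4 of the 7 dendritic cell genes. Only the fibroblast (11 of 13), dendritic cell (2 of 7) and osteoclast (1 of 5) lists had genes above it on every array. A low correlation of genes at the floor says little, so these lists do not show that the covariation is particular to the members.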

How the data were processed

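RNA from 16 cultures was measured on Illumina arrays. The values the authors deposited are intensity readings on a linear scale, 1 per gene symbol and array, normalized by their core facility in a way not given in the sources used here. Array medians as deposited differed (113.8 to 170.1), so log2 values were quantile normalized, and values as deposited were an alternative. Groups came from the labels. Columns of other samples numbered 0. The 43 members, their roles and all marker lists were chosen with earlier results of these data known. One limma 3.58.1 fit (R 4.3.3) covered all genes and 4 groups with 12 residual degrees of freedom and Benjamini-Hochberg adjustment over 18132 genes, and was checked on simulated data. The text names every member by role, and the 10 genes most correlated with the members. Same-numbered arrays of MEKK1+/+ cells correlated at -0.038, 0.485, 0.12 and 0.576, so pairing was unclear for number 1. Those of MEKK1-/- cells all correlated above 0.1. Blocked values stand in the text for both genotypes, with that limit for MEKK1+/+ cells, and the labels give no pairing in either genotype. Alternatives covered scaling, pseudocount (16), floor (64), filter, fitted groups, the replicate block, the study's z-test and leaving out arrays. The number of arrays limits precision.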

Additional observations from a re-analysis of the deposited data

Results flagged for a closer look

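In 72 groups of 4 arrays, the lowest or highest value was set against the others of its group, and 4 groups held a value whose gap to its nearest neighbour exceeded Dixon's critical share of the range. Chance alone marks about 5% of groups. All 4 were the lowest value, in MEKK1+/+ replicate 2. Without CM, CD14 was 9.53 there against 11.88 to 12.05 in the other cultures, and CLEC4N was 8.25 against 10.55 to 10.76. With CM, FCGR3 was 9.13 against 10.46 to 10.64, and MS4A6D was 8.76 against 9.56 to 9.67. The genes covary, so these are not independent events.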

How the results depend on the processing

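The lower median of the members in MEKK1-/- cultures kept its direction under every alternative run. It lay between -0.81 and -0.43 untreated and between -0.78 and -0.51 with CM when each array was left out in turn, with 0 members called, and was -0.72 and -0.44 on the scale as deposited, on which the median of all genes moved to 0.28 in the second contrast. It was -1.20 and -1.16 over the 17 members above the olfactory floor on every array and -1.05 untreated without the arrays numbered 2, where 20 members were called untreated and 14 with CM. The z-test, which divides by the spread over genes and not by that between cultures, called 21 members untreated, 23 with CM, 1 in the MEKK1-/- response (CD14) and 1 in the interaction (CD14). The MEKK1+/+ response called 0 members as deposited, where its median was -0.33 beside -0.28 for all genes, 0 in a fit of its 2 groups, 0 among the 17 members (AQP9 is not among these), and 1 to 2 leaving out each array, LST1 joining AQP9 without untreated replicate 4. Its median ranged from -0.20 to 0.08, that in MEKK1-/- cells from -0.08 to 0.08 and the interaction from -0.09 to 0.18, with 0.34 as deposited beside 0.29 for all genes. With the replicate block within genotype, 3 members were called in MEKK1+/+ cells (AQP9, C1QC and PLD4), beside 8.17% of all genes. Pairing was less clear there, because number 1 did not correlate over all genes. In MEKK1-/- cells 4 members were called, beside 7.93%. The replicate block across genotypes changed no count of members called. Of the 10 genes most like the members, 9 were shared on the deposited scale and 8 to 10 leaving out each array. For the 9 members at the floor, differences can hardly be measured at this signal over background. The largest genotype difference among them was that of NCF1, -0.20 (SE 0.10) untreated. The cause of the shifts was not tested.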
